A study of Homo sapiens with 4 samples.

Results

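The genes described here were 10 dual-specificity phosphatases, DUSP1, DUSP2, DUSP4, DUSP5, DUSP6, DUSP7, DUSP8, DUSP10, DUSP13 and DUSP16. They were chosen by the gene name of the probe, taking all probes that carry one of these names, which gave 12 probes of the 58201 on the array and 10 genes of 43317 gene names. The list itself was selected on measured values, the log2 differences of each resistant array from its parental array, so these differences are a description and were not tested. HN4 and HN30 are established human cell lines of head and neck squamous cell carcinoma (HNSCC), and HN4/DDP and HN30/DDP are their cisplatin-resistant derivatives, made by stepwise increases of the drug. Cisplatin is a platinum drug that damages DNA. All lines grew in DMEM with 10% FBS, and the resistant lines were kept in 20 μM cisplatin for 48 h, while no drug is named for the parental lines. The resistant arrays therefore combined the derived line with the drug in its medium, and these cannot be told apart. Each of the 4 conditions was measured on 1 one-colour Agilent expression array, so no difference has a replicate check. Precision is limited by this number.

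MAP kinases carry growth and stress signals and are switched on when a threonine and a tyrosine in their activation loop are phosphorylated. The dual-specificity MAP kinase phosphatases take both phosphates off again. DUSP1, DUSP2, DUSP4 and DUSP5 are inducible nuclear enzymes, and DUSP5 prefers ERK. DUSP6 and DUSP7 are cytoplasmic and prefer ERK, while DUSP8, DUSP10 and DUSP16 prefer JNK and p38. Several of them are themselves transcribed in response to MAP kinase signalling and so act as negative feedback. DUSP13 is an atypical member without the kinase-docking domain of the others, and its gene gives the separate proteins DUSP13A and DUSP13B, known from skeletal muscle and testis.

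The signal of each gene was read by probes of 60 bases. The first 30 bases of the probes on which the results turn are shown, 5′ to 3′ and with no base marked, since each value below is a value of that probe and not of the whole gene.
DUSP13, chr10:76854216-76854275: gatttccctgacccaattcagagattcttt
DUSP5, chr10:112270900-112270959: tgggaaaagagttcttcagatcatagacca
DUSP10, chr1:221875773-221875832: gttcgaggaagacctaaacaacggtgtgac
DUSP1, chr5:172195296-172195355: tgtctactcctagaagaaccaaatacctca
DUSP6, chr12:89742144-89742203: gcttgtgttgtcgcaaaggggataatctgg
DUSP8, junction probe, chr11:1579141-1579394: caactactgtgaaaagctgctgccctggct
DUSP8, middle probe, chr11:1576310-1576369: ttcagatgtcctagggtctaggagtggggc
DUSP8, last probe, chr11:1575282-1575341: cggcccctccctttgtatttggagacaatg
Coordinates are those of the files, on hg19. The DUSP5 probe lies on the plus strand and the others shown on the minus strand. The DUSP8 junction probe spans 254 bases of the genome, so that it crosses an exon junction. The DUSP7 probe (chr3:52088352-52089886) also does, with a span of 1535 bases. Exon and UTR positions of the other probes were not assigned, since no hg19 annotation was used. The DUSP13 probe is listed for transcripts of both DUSP13A and DUSP13B and does not tell them apart.

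Levels are log2 signals relative to the 75th percentile of the array, so that 0 is that percentile, and a difference of 1 is a 2-fold change. Values of a pair are given with the parental array first. The 75th percentile was an intensity of 494 and 496 in the HN4 pair and 444 and 480 in the HN30 pair. Between 55.3% and 63.6% of spots were well above background, the flag that the scanner software gives to a signal clear of its surroundings. The error beside a difference is the scanner SD, from the software's own error of the spot on both arrays, and does not cover how cultures vary. The 4 arrays shared 1 slide and 1 scan time. Of the 10 squamous epithelial markers, 10 were well above background on 3 of the arrays and 9 on HN30/DDP, where KRT6A was dim. A gene was counted as higher or lower past a log2 difference of 1, if well above background on the brighter array. By this count 4 squamous markers were higher and 2 lower in HN4/DDP, and 2 were higher and 2 lower in HN30/DDP. KRT5 was lower in both lines, with intensities of 3415 and 207 in the HN4 pair and 3179 and 901 in the HN30 pair. The shares of all genes are given below, and nothing is read from these counts.

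DUSP13 showed the largest difference of the members in both lines. Its intensity was 5.18 and 670 in the HN4 pair and 5.99 and 197 in the HN30 pair. Both parental arrays were dim and both resistant arrays were well above background, with no overlap between them. How many of all genes are separated in this way was not counted, and nothing is read from it. The log2 level was 0.43 in HN4/DDP and -1.28 in HN30/DDP. Against the lowest signal well above background on the parental array, DUSP13 was at least 36.7-fold higher in HN4/DDP and at least 10.2-fold higher in HN30/DDP. The fitted log2 differences of 7.01 (scanner SD 1.05) and 4.93 (scanner SD 0.91) rest on parental signals below background and are not sizes of the rise. Between the resistant arrays, both measured, DUSP13 was 3.29-fold lower in HN30/DDP than in HN4/DDP (scanner SD 0.21 on the log2 scale).

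DUSP5, the nuclear ERK phosphatase, was higher in both resistant lines and was the other member past a log2 difference of 2. Its level was 0.33 and 2.70 in the HN4 pair and -0.36 and 0.83 in the HN30 pair. Both resistant levels lay above both parental levels, an order that was likewise not counted over all genes. It was 5.17-fold higher in HN4/DDP (log2 difference 2.37, scanner SD 0.20) and 2.28-fold higher in HN30/DDP (log2 difference 1.19, scanner SD 0.20). With each array scaled to its median the difference in HN30/DDP was 0.77, which no longer counted as higher.

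DUSP10, a phosphatase of JNK and p38, was the remaining gene higher in both lines. Its level was -0.67 and 0.44 in the HN4 pair and -1.48 and 0.06 in the HN30 pair. The resistant levels again lay above the parental ones. The log2 difference was 1.11 in HN4/DDP and 1.54 in HN30/DDP, each with a scanner SD of 0.20 to 0.21. In HN4/DDP it was 0.99 with the normexp background correction, just short of the count.

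**Figure D1:**
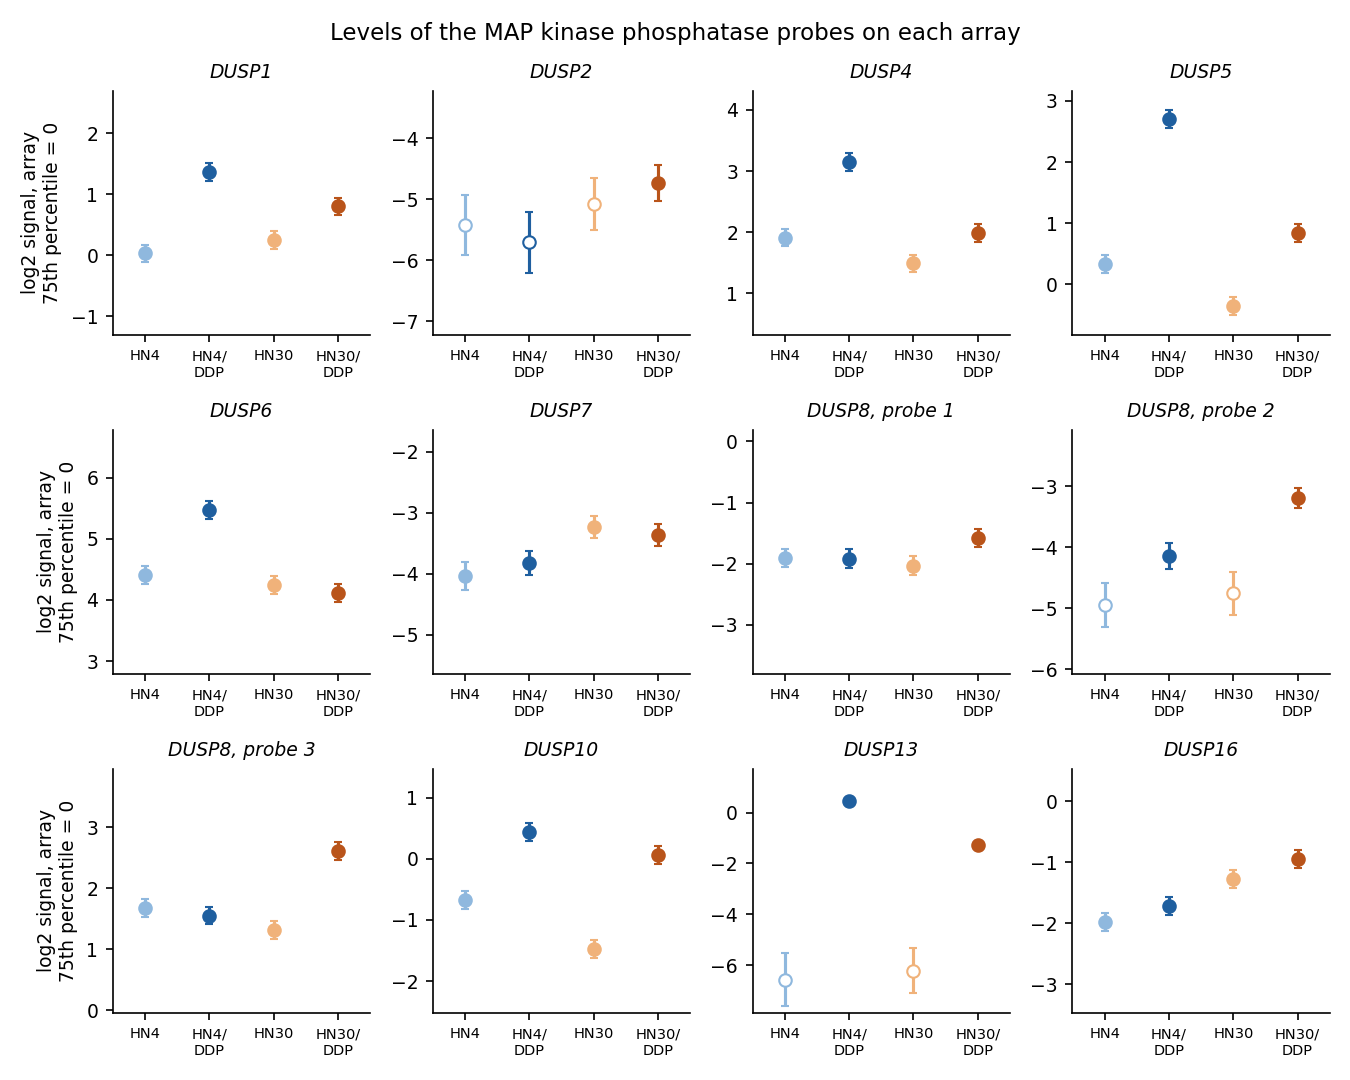
Log2 signal of each of the 12 probes on the 4 arrays, with the array's 75th percentile at 0. Points are single arrays, bars the scanner SD, and open points are not well above background; each panel spans 4 log2 units except DUSP13, whose resistant arrays stand at 0.43 and -1.28 above dim parental arrays.

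DUSP1, DUSP4 and DUSP6 were counted as higher in HN4/DDP and not in HN30/DDP. DUSP1, which acts on all 3 MAP kinase groups, had a level of 0.03 and 1.37 in the HN4 pair and 0.26 and 0.80 in the HN30 pair. Its log2 difference was 1.34 in HN4/DDP and 0.54 in HN30/DDP (scanner SD 0.20 each). This probe is printed in 10 spots, and the SD of the difference over the 9 spots usable on both arrays of a pair was 0.03 in HN4/DDP and 0.07 in HN30/DDP. Over these spots the difference ran from 1.28 to 1.38 and from 0.44 to 0.67. The size in HN30/DDP depended on the scaling, and with each array scaled to its median it was 0.13, smaller than the scanner SD.

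DUSP4, the nuclear enzyme most like DUSP1, had a level of 1.91 and 3.15 in the HN4 pair and 1.49 and 1.99 in the HN30 pair. The log2 difference was 1.24 in HN4/DDP and 0.50 in HN30/DDP, with a scanner SD of 0.20 each. HN4/DDP stood above the other arrays, which ran from 1.49 to 1.99. The difference in HN30/DDP was 0.08 with median scaling and 0.84 with quantile normalization. DUSP6, a feedback phosphatase of ERK, had intensities of 10524 and 22007 in the HN4 pair and 8430 and 8289 in the HN30 pair. It was 2.08-fold higher in HN4/DDP (log2 difference 1.06, scanner SD 0.20). In HN30/DDP the log2 difference was -0.13 with the same scanner SD, smaller than that error.

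The direction of DUSP6 in HN30/DDP depended on the scaling. Genes of a signal like that of DUSP6 had a median difference of -0.56 in HN30/DDP, and with this trend taken off DUSP6 was at 0.42. Quantile normalization gave 0.39 and median scaling -0.55, and the deposited log2 values of the authors gave 0.37. In HN4/DDP the same gene stayed between 1.05 and 1.19 under every setting tried.

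DUSP8, which prefers JNK and p38, was counted as higher in HN30/DDP and not in HN4/DDP. The last probe, which represented the gene, had a level of 1.68 and 1.55 in the HN4 pair and 1.32 and 2.61 in the HN30 pair. HN30/DDP was the high array, by a log2 difference of 1.29 (scanner SD 0.20), and the difference in HN4/DDP was -0.13 (scanner SD 0.20). The 3 probes disagreed in size. The junction probe had a log2 difference of 0.46 (scanner SD 0.21) in HN30/DDP and -0.01 (scanner SD 0.21) in HN4/DDP. The middle probe was dim on both parental arrays and rose at least 2.70-fold in HN30/DDP and at least 1.53-fold in HN4/DDP. With median scaling the last probe was at 0.87 in HN30/DDP and was not counted.

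DUSP7, DUSP16 and DUSP2 were counted in neither line. DUSP7, a cytoplasmic ERK phosphatase, had intensities of 30.05 and 34.9 in the HN4 pair and 47.2 and 46.6 in the HN30 pair. Its log2 differences were 0.21 (scanner SD 0.30) and -0.13 (scanner SD 0.25), both smaller than their error. The size depended on the scaling, with -0.58 in HN30/DDP in the deposited log2 values, and 0.38 and -0.33 in the 2 lines with the brightness trend removed. DUSP16, which prefers JNK and p38, had log2 differences of 0.26 (scanner SD 0.21) in HN4/DDP and 0.33 (scanner SD 0.21) in HN30/DDP. Its level was -1.98 and -1.72 in the HN4 pair and -1.28 and -0.95 in the HN30 pair, so that both HN30 arrays lay above both HN4 arrays. With median scaling the difference in HN30/DDP turned to -0.09. DUSP2, an inducible nuclear enzyme, had intensities of 11.6, 9.51, 13.2 and 18.1 in the order HN4, HN4/DDP, HN30 and HN30/DDP. It was well above background on HN30/DDP alone and gives no fold change in either line.

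**Figure D2:**
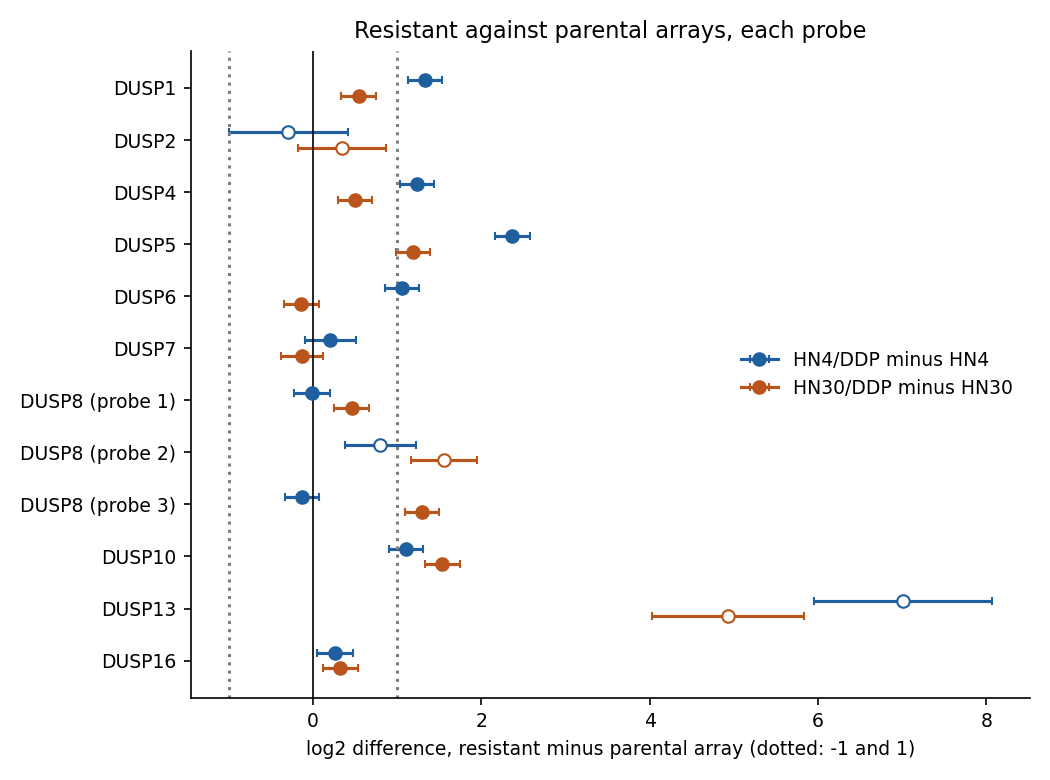
Log2 difference of each probe between resistant and parental array (x axis), with the scanner SD as bars; open points rest on at least 1 array that was not well above background. DUSP5, DUSP10 and DUSP13 lie past 1 in both lines, while DUSP1, DUSP4 and DUSP6 do so in HN4/DDP only.

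In all, 6 of the 10 members were higher and 0 lower in HN4/DDP, where 9 members were measured on at least 1 array of the pair. Over all 26856 genes so measured, 9.31% were higher and 8.65% lower. In HN30/DDP 4 of 10 members were higher and 0 lower, where 19.8% of all 28330 genes were higher and 13.3% lower. DUSP5, DUSP10 and DUSP13 were higher in both lines, as were 4.49% of the 25665 genes measured in both, and 0 members were lower in both, against 1.99%. The members had been chosen with these contrasts known, and nothing is read from the shares. The median log2 difference was 1.11 over the 9 members in HN4/DDP and 0.52 over the 10 in HN30/DDP, against -0.08 and 0.06 over all genes. Of the calls in HN30/DDP over all genes, 59.9% were higher, but 36.3% with median scaling and 46.6% with normexp. Median scaling moved the median of all genes in this line by -0.42. At a log2 difference past 2, 2 members were higher in HN4/DDP and 1 in HN30/DDP, where 3.62% and 8.37% of all genes were, and 0 members were lower, against 2.2% and 2.75%. DUSP13 alone was past 2 in both lines, as were 1.16% of all genes, but with normexp it was at 1.79 in HN30/DDP, short of 2.

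**Figure D3:**
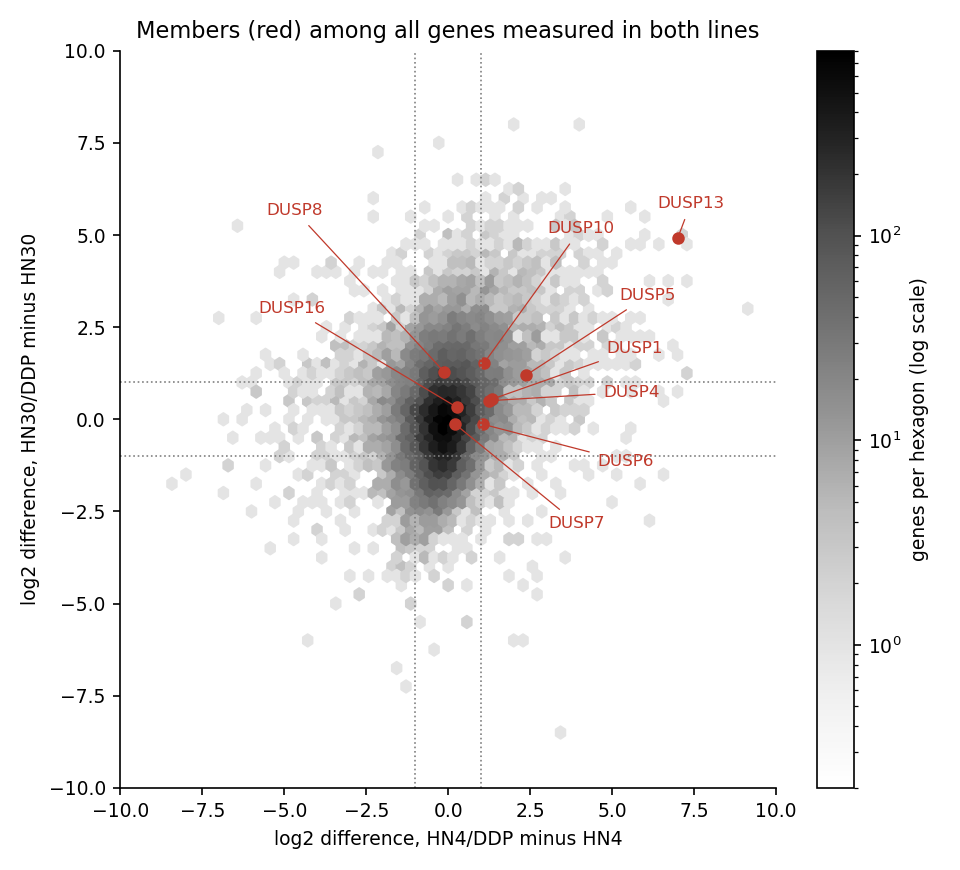
Log2 differences of the 25665 genes measured in both lines, HN4/DDP minus HN4 on the x axis and HN30/DDP minus HN30 on the y axis, with darker hexagons holding more genes and members in red. DUSP13 lies far from the bulk at 7.01 and 4.93, and DUSP7 and DUSP16 lie within it; DUSP2, dim on both HN4 arrays, is not drawn.

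The size of the difference varied between the lines. The difference in HN30/DDP minus that in HN4/DDP was -1.18 for DUSP5 (scanner SD 0.29), -1.19 for DUSP6 (scanner SD 0.29), -0.79 for DUSP1 (scanner SD 0.29) and -0.74 for DUSP4 (scanner SD 0.29). For the last probe of DUSP8 it was 1.42 (scanner SD 0.29), the opposite direction, and for its junction and middle probes 0.47 (scanner SD 0.30) and 0.76 (scanner SD 0.58). DUSP10 was at 0.43 (scanner SD 0.29), and at -0.03 with median scaling. Over the settings tried the contrast ran from -1.25 to -0.62 for DUSP1, from -1.19 to -0.52 for DUSP4, from -1.65 to -0.72 for DUSP6 and from 0.88 to 1.70 for DUSP8. No replicate separates these values from the variation between cultures.

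The parental lines were compared directly as well. Between parental HN30 and HN4, 0 members were counted as higher and 0 as lower, where 3.32% of all genes were higher and 7.08% lower. The members measured ran from -0.81 for DUSP10 to 0.81 for DUSP7. Between the resistant arrays, DUSP4, DUSP5, DUSP6 and DUSP13 were lower in HN30/DDP than in HN4/DDP and DUSP8 was higher, where 10.4% of all genes were lower and 16.4% higher. These log2 differences were -1.16 for DUSP4, -1.87 for DUSP5, -1.36 for DUSP6, -1.72 for DUSP13 and 1.06 for DUSP8. They use the same resistant arrays as the values above. The DUSP8 count was lost with median scaling (0.70), with the mean of its probes (0.78) and with the percentile taken over probes (0.98). The DUSP4 count was lost with the brightness trend removed (-0.94), where DUSP6 was at -1.01.

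DUSP9, the cytoplasmic ERK phosphatase that completes the typical family, was not among the members. Its log2 difference was 0.31 (scanner SD 0.25) in HN4/DDP and 0.27 (scanner SD 0.23) in HN30/DDP. Of 15 atypical dual-specificity phosphatases, the class of DUSP13, 0 were higher and 0 lower in HN4/DDP. In HN30/DDP 2 were higher, DUSP26 and DUSP27, both dim on the parental array, and 1 lower, DUSP12, at -1.16 (scanner SD 0.20). These 3 genes are named because the counts are small, after their values were seen. The shares of all genes were 9.31% higher and 8.65% lower in HN4/DDP and 19.8% and 13.3% in HN30/DDP, and with so few genes nothing is read from these counts. The median difference of the class was 0.11 over 13 measured genes and -0.27 over 14.

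Among the kinases that these phosphatases act on, MAPK3, MAPK8 and MAPK14 were counted in neither line. MAPK3, an ERK gene, had a log2 difference of -0.12 in HN4/DDP and of 0.43 in HN30/DDP, with a scanner SD of 0.20 each. MAPK8, which encodes JNK, had -0.89 in both lines (scanner SD 0.21 each). MAPK14, a p38 kinase, had -0.19 (scanner SD 0.20) and -0.10 (scanner SD 0.20). The other p38 genes, named after their values were seen, were counted in HN30/DDP, where MAPK11 was higher, by a log2 difference of 1.42 (scanner SD 0.20), and MAPK12 and MAPK13 were lower, with -1.01 (scanner SD 0.21) and -1.37 (scanner SD 0.20). In HN4/DDP none of these was counted, and the values were 0.95 for MAPK11, 0.23 for MAPK12 and 0.10 for MAPK13. Of 21 ERK cascade genes, 0 were higher and 2 lower in HN4/DDP, and 1 was higher and 2 lower in HN30/DDP. Of 19 p38 and JNK cascade genes, 0 were counted in either direction in HN4/DDP, and 2 were higher and 4 lower in HN30/DDP. Of all genes, 9.31% were higher and 8.65% lower in HN4/DDP and 19.8% and 13.3% in HN30/DDP, and nothing particular to these cascades is read from the counts. MAPK10, a JNK gene dim on both parental arrays, was one of the higher genes and rose at least 1.93-fold in HN30/DDP. The list medians were -0.02 and -0.30 for the ERK cascade and -0.14 and -0.32 for p38 and JNK.

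Immediate early genes are transcribed within minutes of MAP kinase activation. Of 16 such genes, 9 were higher and 1 lower in HN4/DDP, and 6 were higher and 1 lower in HN30/DDP, where 15 were measured. Of all genes, 9.31% were higher and 8.65% lower in HN4/DDP, and 19.8% and 13.3% in HN30/DDP. EGR2 and EGR3, counted as higher in both lines, were dim on both parental arrays. The list was chosen with earlier results of these data known, and nothing is read from the counts. FOS, a subunit of AP-1, had a level of -2.23 and 0.61 in the HN4 pair and -0.23 and 0.44 in the HN30 pair. It was 7.17-fold higher in HN4/DDP and 1.59-fold higher in HN30/DDP. FOSB, its relative, was higher in both lines, by a log2 difference of 2.79 (scanner SD 0.23) and 2.37 (scanner SD 0.22). EGR1, a zinc finger factor, had a level of 1.36 and 3.47 in the HN4 pair and 4.0 and 2.79 in the HN30 pair. Its log2 difference was 2.11 in HN4/DDP and, on the other side of 0, -1.21 in HN30/DDP (scanner SD 0.20 each). The median of the list was 1.19 in HN4/DDP and 0.74 in HN30/DDP.

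A list of longer-lasting output of ERK signalling had genes in both directions. Of 16, 3 were higher and 1 lower in HN4/DDP, and 3 were higher and 2 lower in HN30/DDP, the latter near the shares of all genes of 19.8% and 13.3%. In HN4/DDP these shares were 9.31% and 8.65%. SPRY4, an inhibitor of receptor tyrosine kinase signalling, was 1.68 above its parental level in HN4/DDP (scanner SD 0.21) and had a difference of 0.60 in HN30/DDP (scanner SD 0.21). Its relative SPRY2 had differences of 0.24 and 0.39 (scanner SD 0.20 each). ETV4, an ETS factor induced by ERK, was 1.27 above it in HN4/DDP (scanner SD 0.21) and had 0.63 in HN30/DDP (scanner SD 0.21), while ETV5 had 0.48 and 0.63 (scanner SD 0.21 and 0.20). FOSL1, an AP-1 subunit, had 0.78 in HN4/DDP and fell below parental HN30 in HN30/DDP, by a log2 difference of -1.64 (scanner SD 0.20 each). HMGA2, a chromatin protein, was 6.41-fold lower in HN30/DDP. SPRED3, an inhibitor of the ERK pathway named after its values were seen, was the one gene of this list counted as higher in both lines. It was dim on both parental arrays, and its rise in HN30/DDP was at least 2.78-fold and that in HN4/DDP at least 1.1-fold.

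**Figure D4:**
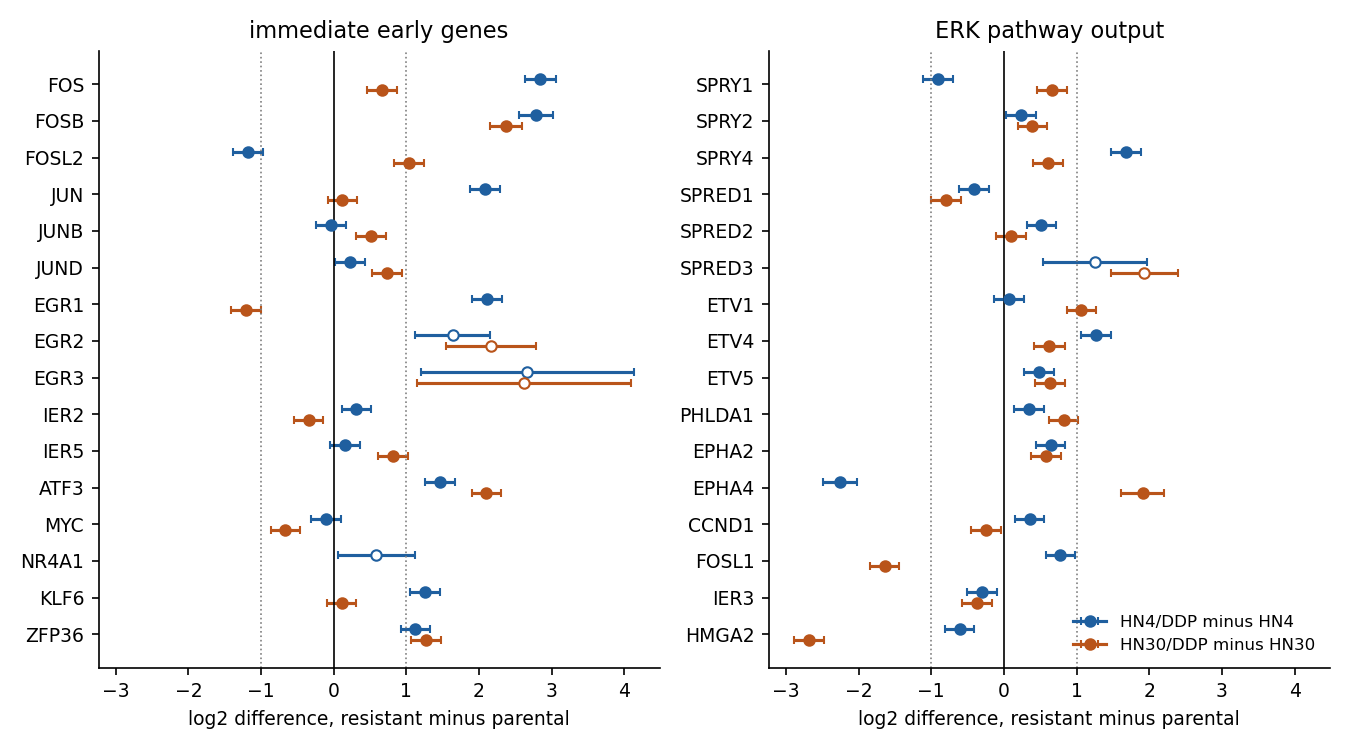
Log2 difference between resistant and parental array (x axis) for 16 immediate early genes (left) and 16 genes of ERK output (right), blue for HN4/DDP and orange for HN30/DDP, with the scanner SD as bars; open points were dim on 1 array and values dim on both are left out. FOSB, ATF3 and ZFP36, and EGR2 and EGR3 as open points, lie past 1 in both lines, as does SPRED3 on the right, also open. EGR1, FOSL2 and EPHA4 lie past 1 on opposite sides of 0.

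Promoter sequence was available from RefSeq (GRCh38.p14) for 8 of the 10 members, with none listed for DUSP4 and DUSP5. In the 250 bases before each start, 11 motifs were searched on both strands. They were the cAMP response element (CRE) TGACGTCA, its shorter form TGACG, the AP-1 motif TGACTCA, the ETS motifs CCGGAAGT and GGAAGT, the serum response element, the antioxidant core TGACNNNGC, the TATA box TATAAA, the CCAAT box, the GC box GGGGCGGGG and the EGR motif GCGGGGGCG. TGACG lies within the CRE, and GGAAGT within CCGGAAGT. The CRE was found in DUSP1 and DUSP8 and in 1.65% of all 35116 promoters, TGACG in the same 2 members and in 21.2%. AP-1, both ETS motifs and the serum response element were in 0 members, and in 4.20%, 3.42%, 19.5% and 0.0313% of all promoters. TGACNNNGC and TATAAA were in DUSP1 only, against 10.9% and 10.72%. CCAAT was in DUSP6, DUSP8 and DUSP10 (32.0% of all), the GC box in DUSP2, DUSP7, DUSP8 and DUSP10 (15.1%) and the EGR motif in DUSP2 (4.72%).

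The promoters with a CRE are shown, with that of DUSP13B for comparison, since DUSP13 had the largest differences. The CRE was found in DUSP1, counted as higher in HN4/DDP only, and in DUSP8, counted as higher in HN30/DDP only. DUSP6, DUSP10 and DUSP13, also counted as higher, had no CRE in this window. A link between motif and difference was not tested. Capitals mark TGACGTCA and TATAAA. The CRE was picked out for printing after the matches were seen.
DUSP1, minus strand, chr5:172771196-172771445: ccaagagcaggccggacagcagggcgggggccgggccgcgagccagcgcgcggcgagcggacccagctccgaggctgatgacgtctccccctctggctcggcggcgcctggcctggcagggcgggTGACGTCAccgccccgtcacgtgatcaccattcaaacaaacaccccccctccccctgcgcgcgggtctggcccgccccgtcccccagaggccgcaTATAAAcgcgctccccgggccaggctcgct
DUSP8, minus strand, chr11:1572272-1572521: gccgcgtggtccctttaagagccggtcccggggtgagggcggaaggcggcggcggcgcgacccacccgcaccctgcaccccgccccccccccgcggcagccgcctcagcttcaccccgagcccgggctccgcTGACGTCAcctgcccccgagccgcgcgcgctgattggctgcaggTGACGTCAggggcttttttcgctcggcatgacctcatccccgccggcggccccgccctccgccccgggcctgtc
DUSP13B, minus strand, chr10:75099491-75099740: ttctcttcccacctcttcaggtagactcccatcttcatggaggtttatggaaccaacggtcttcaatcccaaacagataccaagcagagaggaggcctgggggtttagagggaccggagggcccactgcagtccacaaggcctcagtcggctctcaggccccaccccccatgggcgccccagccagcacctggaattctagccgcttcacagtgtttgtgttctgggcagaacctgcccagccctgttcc
In DUSP1 the CRE lies 125 to 118 bases before the start and TATAAA 30 to 25 bases before it. In DUSP8 the CREs lie 118 to 111 and 74 to 67 bases before the start. The printed DUSP13B window holds none of the 11. A match is a description of these letters and not a binding site.

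DUSP13 was also set beside its neighbours on chromosome 10 and markers of the tissues known for it. In HN4/DDP 1 of 5 neighbouring genes was higher, in HN30/DDP 0 were, and 0 were lower in either line. That gene, SAMD8, named after its value was seen, had a log2 difference of 1.02 (scanner SD 0.21). Of all genes, 9.31% were higher and 8.65% lower in HN4/DDP, and 19.8% and 13.3% in HN30/DDP. With 5 genes nothing is read from these counts. Of 8 skeletal muscle markers, 4 to 6 were well above background on each array, and CKM and MYH1 on none. Their summed intensity was 1095 and 486 in the HN4 pair and 672 and 1970 in the HN30 pair, a fall in one line and a rise in the other. TNNT3 made most of the fall, with intensities of 609 and 44.9 in the HN4 pair, and TNNT3 (217 and 1119) and MB (17.1 and 378) most of the rise in the HN30 pair. DES ran from 336 to 368 over the 4 arrays. Of 7 male germ cell markers, 4 or 5 were well above background, DAZL on none, and the sum ran from 131 to 164. Their part in the DUSP13 difference was not tested. Of 6 fibroblast markers 2 were well above background on every array, COL1A1 and PDGFRB, and COL1A2, COL3A1, DCN and LUM on none. Their summed intensity was 195 and 510 in the HN4 pair and 99.5 and 370 in the HN30 pair. COL1A1 made most of the rise within each pair, with 137 and 455 in the HN4 pair and 50.01 and 291 in the HN30 pair. PDGFRB had 40.5 and 40.3, and 33.5 and 56.04. Of 4 immune markers found on the array, PTPRC and CD14 were well above background on every array, and CD14 was 11.2-fold higher in HN30/DDP. PTPRC had a log2 difference of 0.16 there (scanner SD 0.24). CD3E was well above background on HN30/DDP alone, where it rose at least 1.38-fold. The part of these markers in the differences of the members was not tested.

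The genes whose values over the 4 arrays lay nearest to DUSP13 were, in order, EDN2, MUC19, KLK7, AKR1B10 and MERTK. Likeness was the Euclidean distance between log2 values centred on each gene's mean, among 15345 messenger RNA genes, and ran from 0.88 to 1.32. EDN2, MUC19, KLK7 and MERTK were, like DUSP13, well above background only on the resistant arrays, and AKR1B10 was dim on parental HN30, so that all 5 distances include dim signals. For DUSP6 the nearest were CTXN1, TTBK1, RNMT, CEP72 and PDXDC1, at distances of 0.06 to 0.14. TTBK1 was dim on both HN30 arrays, so its distance also includes dim signals. Each is a likeness over 4 arrays and nothing more.

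**Figure D5:**
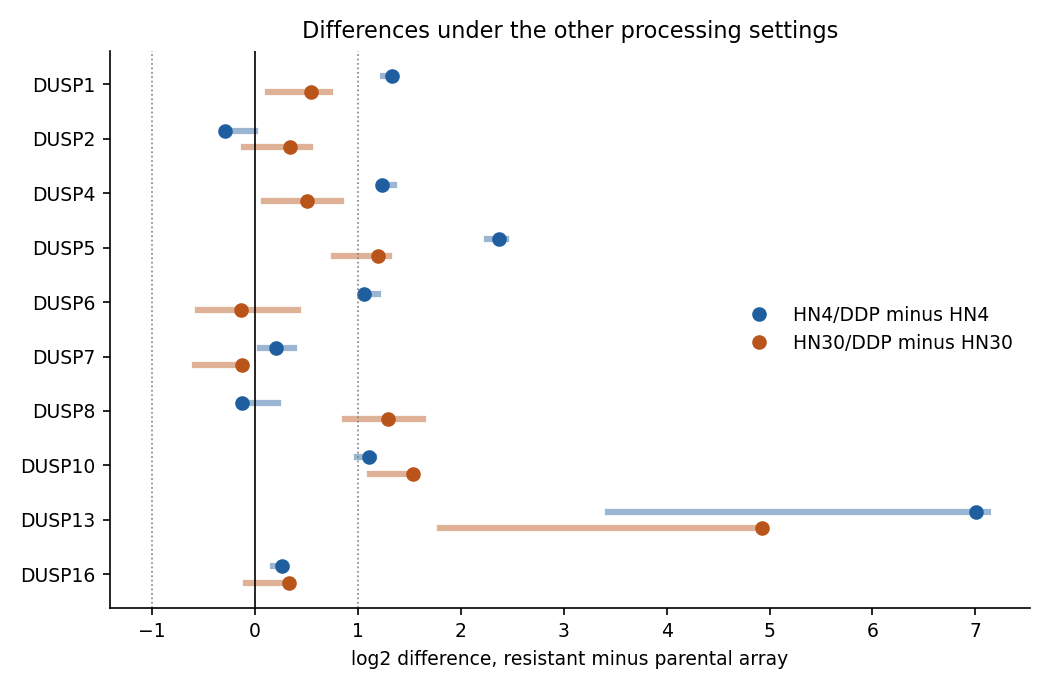
Log2 difference of each member between resistant and parental array (x axis) in the main setting (points) and its range over the other processing settings (bars). DUSP13 runs from 3.43 to 7.12 in HN4/DDP and from 1.79 to 4.93 in HN30/DDP, and the bar of DUSP6 in HN30/DDP crosses 0.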

How the data were processed

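Total RNA of 4 cell cultures was labelled with Cy3 and measured on 1 Agilent array each. Per the file headers, Feature Extraction 10.7.1.1 gave the deposited processed intensity of each spot, background-subtracted and without normalization between arrays, with probes placed on hg19. The authors also deposited log2 values in which all arrays have the same quantiles. Columns of authors' comparisons were not present among the files used.

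From the intensities, log2 minus each array's 75th percentile over the 60901 non-control spots was taken. Spots marked as outliers were left out of the values, the spots of each probe were averaged, and a gene took the value of whichever of its probes had the highest mean. The percentile was settled after member values had been seen, and the percentile over probes and the percentile without outlier spots were added as alternatives, as was removal of the trend with brightness. No pair can be tested, having 1 array on each side. A fit of resistant against parental arrays over both lines could be made and was not run, since the members were chosen on these contrasts. Bounds use the lowest signal well above background. The members and lists were chosen with earlier results of these data known. Named genes were all member probes, DUSP9, up to 4 genes per list past 2 in either line, 10 set kinases, feedback and early genes, and the 5 nearest to DUSP13 and DUSP6; some of these are not reported here. The counting was tested on simulated data in which every gene was well above background, so the handling of dim signals was not covered. Python 3.11.15, pandas 2.3.3, numpy 2.4.6 and limma 3.58.1 (normexp, offset 50) were used. There were 10 planned and 3 added settings.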

Additional observations from a re-analysis of the deposited data

Results flagged for a closer look

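Of the member and list genes, 6 were past a log2 difference of 1 in opposite directions in the 2 lines, and none of them is a member. Whether the lines differ was not tested. In HN4/DDP the log2 difference was 2.11 for EGR1, -1.18 for FOSL2, -1.07 for EGFR, -2.26 for EPHA4, 3.32 for KRT6A and -3.77 for TNNT3. In HN30/DDP it was -1.21 for EGR1, 1.04 for FOSL2, 1.49 for EGFR, 1.91 for EPHA4, -8.44 for KRT6A and 2.26 for TNNT3. KRT6A was dim on the HN30/DDP array and fell there at least 183-fold, the fitted -8.44 being no size of the fall.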

How the results depend on the processing

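The counts of members kept their size within 1.5 times in 87 of 91 recomputations, and no called difference turned its sign. The tally takes in counts that were 0, for lower members and between the parental lines. It therefore does not measure how steady the other counts were. The counts between the resistant arrays are not in it. A threshold of 2 left 2 members higher in HN4/DDP, 1 in HN30/DDP and 1 in both lines, and between the resistant arrays 0 in either direction. Median scaling left 2 in HN30/DDP, DUSP10 and DUSP13. The member differences moved by more than the scanner SD in 30 of 300 recomputations and the list medians in 45 of 390. DUSP13 was lowest with normexp, at 3.43 in HN4/DDP and 1.79 in HN30/DDP, where the correction adds an offset to dim signals. The percentile over probes moved the median of all genes in HN30/DDP by -0.13 and the authors' table by -0.12. It gave 2075 genes higher and 965 lower past 2 there, against 2371 and 779, and the percentile without outlier spots 2365 and 783. These 2 percentiles and the trend with brightness were chosen after seeing the data. Signals near background limit DUSP2, DUSP7, the middle DUSP8 probe and the parental levels of DUSP13. A paired fit over both lines with the line as a block could be made and was not run, since the members were chosen on these contrasts.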
